A study of Danio rerio with 6 samples.

Results

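The pronephros genes described here are 10 zebrafish genes, pax2a, pax8, lhx1a, hnf1ba, wt1a, cdh17, slc20a1a, slc4a4a, nphs1 and osr1, taken by name from a table of 31484 counted genes. Where the name table carried only the human-style symbol, the symbol without its final letter was used, which returned 14 gene IDs. The 4 extra IDs were the duplicate copies pax2b, hnf1bb, slc20a1b and slc4a4b. Copies under a shared symbol were told apart by the chromosome that RefSeq gives for each name. The RNA came from whole Danio rerio embryos at 22 hours post fertilization. There were 3 libraries from homozygous synpo2 mutants (synpo2 -/-) and 3 from embryos homozygous for the wild-type allele (synpo2 wt/wt), called biological replicates by the submitters. synpo2 encodes synaptopodin-2, an actin-binding protein of muscle. The labels used here state neither the lesion and the strain nor how many embryos made up a library. The p-values therefore measure the spread between these libraries.

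The pronephros is the first kidney of the fish embryo, a pair of nephrons formed from intermediate mesoderm. Each nephron has a glomerulus with podocytes, a segmented tubule and a duct. osr1, pax2a, pax8 and lhx1a act in the intermediate mesoderm and in renal progenitors, wt1a and nphs1 in podocytes, and hnf1ba in tubule epithelium and its segments. cdh17 marks the tubule and duct, and slc20a1a and slc4a4a encode transporters of the proximal tubule. Several of these genes are also expressed elsewhere in the embryo. pax2a and pax8 are used at the midbrain-hindbrain boundary and in the otic vesicle, lhx1a in spinal and hindbrain interneurons, and hnf1ba in gut endoderm and hindbrain. A whole-embryo library sums all of these sites, and in such bulk samples fewer cells of a type and less RNA per cell cannot be told apart.

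The libraries held 32714170 to 34822328 counts, apart from wild type replicate 1 with 142789686 counts, 4.26 times the mean of the other 5. Every pair of libraries differed by more than sampling noise. synpo2b, the synpo2 copy named in the table, had 1.71, 1.58 and 1.52 CPM (counts scaled to library size) in mutant replicates 1 to 3, against 3.96, 3.91 and 6.09 CPM in wild type replicates 1 to 3. Its log2 fold change was -1.53 (SE 0.27, adjusted p = 0.15 by edgeR and 0.000114 by DESeq2). It passed the threshold of 0.05 in DESeq2 and not in edgeR, and the labels do not say which copy carries the lesion.

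All 10 pronephros genes were detected in all 6 libraries and passed the filter on low counts, and none of the 10 passed the test for a difference between the genotypes. edgeR's quasi-likelihood test called 0 of the 10 at an adjusted p under 0.05, where it called 0.0735% of the 20415 genes tested. The smallest adjusted p of the 10 was 0.435, for lhx1a. At an unadjusted p under 0.05 there was 1 of the 10, lhx1a, against 11.2% of all genes tested. DESeq2 also called 0 of the 10, where it called 2.21% of the genes to which it gave an adjusted p. Log2 fold changes (mutant minus wild type) were above 0 for 5 genes and below 0 for 5, with a median of 0.05, beside 0.01 over all genes tested.

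A gene's 95% interval shows what size of change these libraries leave possible. For 7 of the 10 genes the interval lay within a 2-fold change in either direction. It reached past 2-fold lower for lhx1a, and past 2-fold higher for wt1a and cdh17. Counts were simulated at this depth, with changed genes drawn at random from those averaging 1 CPM or more. edgeR recovered 28% of genes changed by 2-fold and 94% of genes changed by 4-fold, so a call could be missed at the sizes seen here. Apart from pax2a (0.136), the 10 genes had an SD of log2 CPM within genotypes of 0.280 to 0.608. The median over genes averaging 1 CPM or more was 0.247, so these rates need not hold for the 10 genes. All 10 intervals lay within 4-fold.

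**Figure D1:**
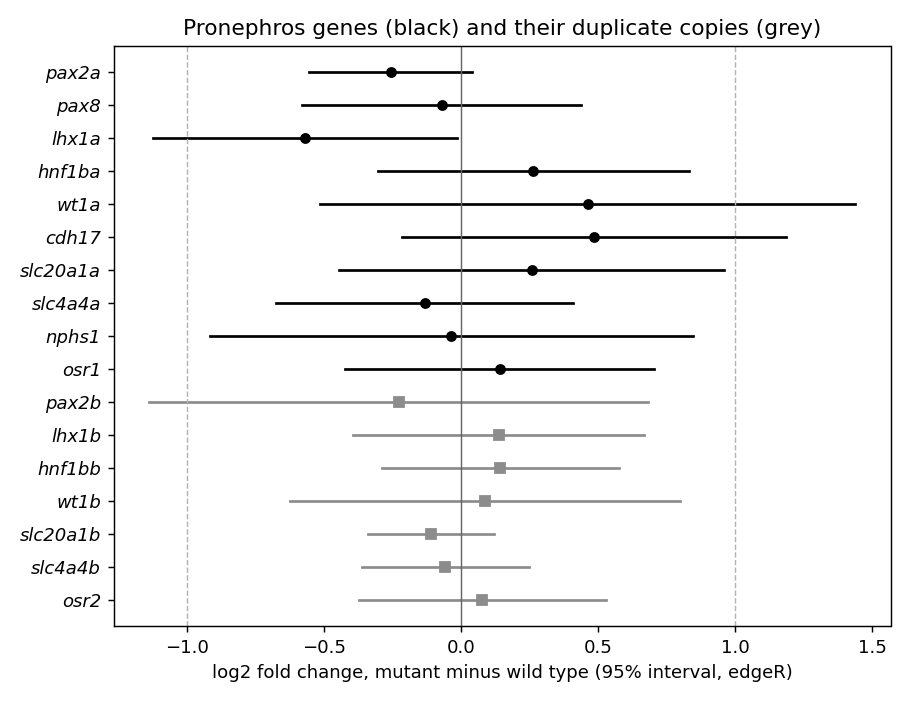
Log2 fold changes (x axis, mutant minus wild type) with 95% intervals from edgeR, n = 3 libraries per genotype. Black circles are the 10 pronephros genes. Grey squares are the partner genes of 7 of them (duplicate copies, and osr2 for osr1). Dashed lines mark a 2-fold change. The interval of lhx1a ends at -0.02, and the intervals of the other 9 black genes include 0.

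Levels per length are given in TPM (counts divided by counted gene length and scaled so that each library sums to the same total). cdh17 was the most abundant, at 37.4 ± 16.7 TPM in mutants and 26.7 ± 9.31 TPM in wild type (SD, n = 3 each). pax2a followed at 13.9 ± 1.48 and 16.3 ± 2.15 TPM in mutants and wild type. pax8, slc4a4a, hnf1ba, osr1 and lhx1a came next, with means over the 6 libraries of 10.8, 10.2, 8.95, 7.48 and 5.91 TPM. wt1a was at 3.49 TPM, slc20a1a at 2.16 TPM and nphs1 at 0.516 TPM.

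Neighbours in this order mostly overlapped. nphs1 stood apart at the bottom, with a highest library of 0.746 TPM below the lowest slc20a1a library of 1.33 TPM. The ranges of all other neighbouring pairs overlapped across the 6 libraries. Within libraries, cdh17 exceeded pax2a and pax2a exceeded pax8 in 6 of 6. For pax8 over slc4a4a, slc4a4a over hnf1ba and osr1 over lhx1a the order held in 3 of 6, so those neighbours did not differ beyond their spread.

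**Figure D2:**
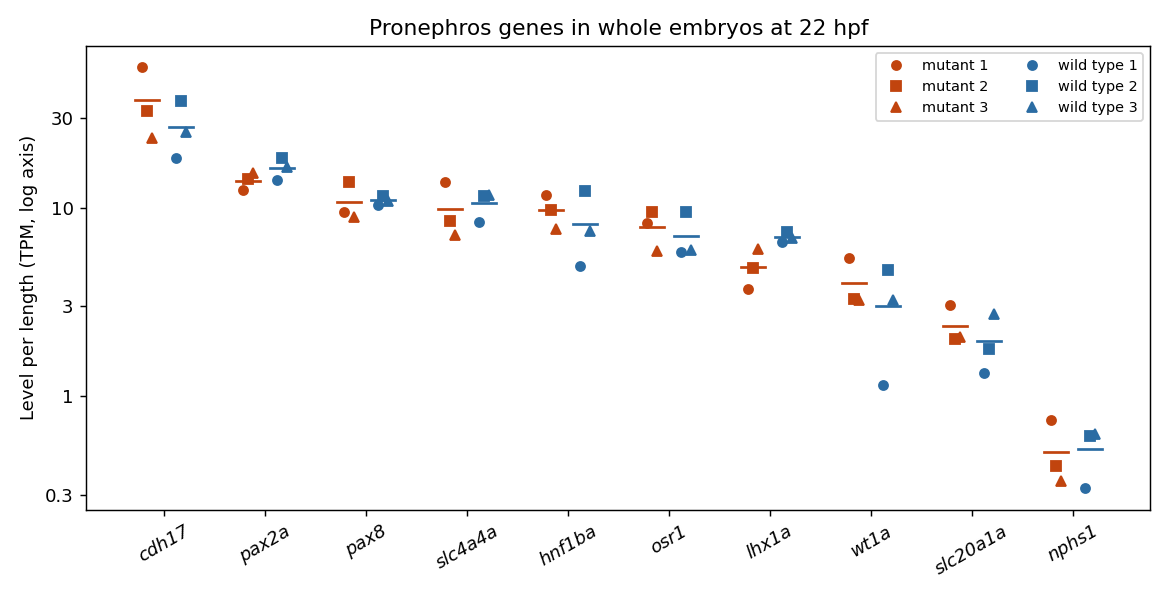
Level per length (y axis, TPM, logarithmic) of the 10 pronephros genes in each library, mutants in red and wild type in blue, with a bar at each genotype's mean (n = 3 each); genes run from the highest to the lowest mean. lhx1a is the gene whose mutant libraries, up to 6.03 TPM, all lie below the wild-type libraries, from 6.59 TPM.

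Among the regulators of intermediate mesoderm, lhx1a and pax2a were lower in every mutant library than in any wild-type library on the CPM scale, without passing the test. lhx1a (ENSDARG00000014018, GRCz10 chromosome 15, 27770533 to 27777699, minus strand) encodes a LIM homeodomain factor needed for the formation of kidney and other mesoderm derivatives. It had 4.84, 6.51 and 8.13 CPM in mutant replicates 1 to 3, against 11.04, 8.61 and 9.23 CPM in wild type replicates 1 to 3. Mutant replicate 1 was the lowest and wild type replicate 1 the highest, and the groups were 0.479 CPM apart. The log2 fold change was -0.57 (SE 0.24, 95% interval -1.12 to -0.02, edgeR adjusted p = 0.435, n = 3 each). Without mutant replicate 1 it was -0.38 (edgeR adjusted p = 0.739).

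pax2a (ENSDARG00000028148, chromosome 13, 29640387 to 29674090, plus strand) encodes a paired-box factor that keeps renal progenitors in the nephric lineage. Its level was 27.3, 32.3 and 34.6 CPM in mutant replicates 1 to 3, against 39.7, 35.8 and 37.1 CPM in wild type replicates 1 to 3. Here too mutant replicate 1 was lowest and wild type replicate 1 highest. The groups were 1.196 CPM apart, at a higher level of expression than for lhx1a. The estimate for pax2a on the log2 scale was -0.26 (SE 0.13, 95% interval -0.56 to 0.04, edgeR adjusted p = 0.495). In TPM the groups overlapped, since wild type replicate 1 at 14.1 TPM lay below mutant replicate 3 at 15.3 TPM. So the separation of pax2a depends on the scale, while lhx1a was also apart in TPM. How many of all genes tested were apart in TPM was not counted. Between libraries, the ratio of TPM to CPM moves by a factor shared by all genes. This factor was lowest in wild type replicate 1, so the overlap of pax2a in TPM is not particular to that gene. On the CPM scale, ranges apart in this direction were found for 2 of the 10 genes, against 9.63% of all genes tested. Ranges apart in the other direction, higher in mutants, were found for 0 of the 10, against 8.45% of all genes tested.

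pax8 and osr1 overlapped between the genotypes. pax8 (ENSDARG00000015879, chromosome 5, 71633658 to 71643280, minus strand), the paired-box partner of pax2a, had 12.1, 17.96 and 11.7 CPM in mutant replicates 1 to 3, against 16.8, 12.9 and 14.1 CPM in wild type replicates 1 to 3. Mutant replicate 2 was the highest of all libraries and the remaining mutants were the lowest. pax8 differed by -0.07 on the log2 scale (95% interval -0.58 to 0.44).

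osr1 (ENSDARG00000014091, chromosome 13, 32013920 to 32019993, plus strand) encodes a zinc finger factor that acts at the start of the series, where intermediate mesoderm separates from endoderm and vessel precursors. It had 7.67, 9.06 and 5.59 CPM in mutant replicates 1 to 3, against 6.86, 7.77 and 5.61 CPM in wild type replicates 1 to 3. The highest and the lowest library were both mutants, and the wild-type libraries lay between them. For osr1 this gave a log2 fold change of 0.14 (95% interval -0.42 to 0.70).

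Of the podocyte genes, wt1a had the widest spread of the 10. wt1a (ENSDARG00000031420, chromosome 25, 15081825 to 15117761, minus strand) encodes a zinc finger factor of podocyte progenitors. It had 5.38, 3.37 and 3.32 CPM in mutant replicates 1 to 3, against 1.47, 4.10 and 3.29 CPM in wild type replicates 1 to 3. Wild type replicate 1 was far below the other 5 libraries, and mutant replicate 1 was above them. The log2 fold change was 0.46 (SE 0.41, 95% interval -0.52 to 1.44, edgeR adjusted p = 0.699). With a library left out it ran from 0.12 (without wild type replicate 1) to 0.80 (without wild type replicate 2), and limma-voom gave 0.745. Within genotypes the SD of log2 CPM was 0.608, larger than for 87.3% of the genes that averaged 1 CPM or more, whose median was 0.247. Counting error at its lowest count, 109 in wild type replicate 3, is an SD of 0.138 on the same scale. Wild type replicate 1, lowest in CPM, held 184 counts.

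nphs1 (ENSDARG00000060758, chromosome 15, 36698534 to 36869503, minus strand) encodes nephrin, the adhesion protein of the slit diaphragm between podocyte foot processes. It had 1.503, 0.882 and 0.728 CPM in mutant replicates 1 to 3, against 0.830, 1.095 and 1.297 CPM in wild type replicates 1 to 3. Mutant replicate 1 was again the highest, and the groups overlapped throughout. The 5 shallower libraries held only 25 to 50 nphs1 counts, so counting error alone gives an SD of 0.289 on the log2 scale in the lowest of them. Between the genotypes nphs1 differed by -0.04 on the log2 scale (95% interval -0.92 to 0.84). Its SD within genotypes was 0.43, above that counting error.

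In the tubule epithelium, hnf1ba and cdh17 had higher means in mutants but followed single libraries. hnf1ba (ENSDARG00000006615, chromosome 15, 16061127 to 16076941, minus strand) encodes a homeodomain factor that sets the identity of tubule segments. It had 25.9, 22.3 and 17.5 CPM in mutant replicates 1 to 3, against 13.8, 23.9 and 17.1 CPM in wild type replicates 1 to 3. Wild type replicate 2 lay between mutant replicates 1 and 2, and mutant replicate 3 was close to wild type replicate 3. Its log2 fold change was 0.26 (SE 0.24, 95% interval -0.30 to 0.83). With a library left out it ran from 0.0957 (without wild type replicate 1) to 0.53 (without wild type replicate 2).

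cdh17 (ENSDARG00000005112, chromosome 16, 26900740 to 26929356, plus strand) encodes a cadherin of tubule and duct cells. It had 109.2, 65.8 and 47.3 CPM in mutant replicates 1 to 3, against 45.7, 63.3 and 49.96 CPM in wild type replicates 1 to 3. Only mutant replicate 1 stood clear, at 1.93 times the mean of the other mutants, and mutant replicate 3 was below 2 of the wild-type libraries. The log2 fold change was 0.48 (SE 0.30, 95% interval -0.22 to 1.19, edgeR adjusted p = 0.576). With a library left out it ran from 0.11 (without mutant replicate 1) to 0.725 (without mutant replicate 3). With 1623 counts or more per library, counting error is an SD of at most 0.0358 on the log2 scale, against a spread within genotypes of 0.463.

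The transporter genes of the proximal tubule showed the same high mutant replicate 1. slc20a1a (ENSDARG00000020114, chromosome 8, 31047865 to 31065783, minus strand) encodes a sodium-phosphate transporter. It had 6.28, 4.32 and 4.37 CPM in mutant replicates 1 to 3, against 3.52, 3.26 and 5.79 CPM in wild type replicates 1 to 3. Wild type replicate 3 lay above 2 of the mutants. slc20a1a had a log2 fold change of 0.26 (95% interval -0.45 to 0.96). Leaving out a library gave 0.0703 (without mutant replicate 1) to 0.556 (without wild type replicate 3).

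slc4a4a (ENSDARG00000013730, chromosome 5, 45147260 to 45276787, minus strand) encodes a sodium-bicarbonate cotransporter, which moves bicarbonate across the basal membrane of proximal tubule cells. It had 38.9, 24.9 and 21.0 CPM in mutant replicates 1 to 3, against 30.4, 29.1 and 33.6 CPM in wild type replicates 1 to 3. All 3 wild-type libraries lay between the highest mutant and the other mutants. slc4a4a had a log2 fold change of -0.13 (95% interval -0.67 to 0.41).

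Across libraries the 10 genes went in different directions. Mutant replicate 1 was the highest library for 6 of them (hnf1ba, wt1a, cdh17, slc20a1a, slc4a4a and nphs1) and the lowest for pax2a and lhx1a. Over all genes tested, mutant replicate 1 was the highest library for 21.1%, and over the 96 other tested pronephros genes for 29.2%. Wild type replicate 1 was the highest library for lhx1a and pax2a and the lowest for hnf1ba, wt1a and cdh17. Over all genes tested it was the highest for 28.8% and the lowest for 25.5%. Mutant replicate 3 was the lowest for 4 genes, pax8, slc4a4a, nphs1 and osr1, and for 13.6% of all genes tested. For the 6 genes highest in mutant replicate 1, that library was at 1.298 to 1.93 times the mean of mutant replicates 2 and 3. Their mutant means were at 0.912 to 1.398 times their wild-type means.

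Other tissues differed between the same libraries. Genes of the yolk syncytial layer (13 of 13 listed, none at 0) summed to 16720, 6635 and 2340 CPM in mutant replicates 1 to 3, against 4075, 7202 and 3217 CPM in wild type replicates 1 to 3. Fast skeletal muscle genes (14 of 18 found, none at 0) summed to 5047 to 8711 CPM in mutants, against 9079 to 13940 CPM in wild type. Tailbud and segmentation genes (10 of 12) summed to 376.9 to 498.4 CPM in mutants, against 303.8 to 340.0 CPM in wild type. Their part in the values of the pronephros genes was not tested.

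Cell types that share regulators with the pronephros were compared as well. Genes of the midbrain-hindbrain boundary and otic vesicle (17 of 17) summed to 391.1 to 421.5 CPM in mutants, against 370.9 to 391.5 CPM in wild type. Those of spinal and hindbrain interneurons (11 of 13) summed to 133.5 to 165.2 CPM in mutants, against 155.5 to 181.1 CPM in wild type. Of these 11, 7 had a log2 fold change below 0, with a median of -0.23. Of the 17 midbrain-hindbrain boundary and otic genes, 8 were below 0, with a median of 0.02. Medians were -1.13 for the muscle, 0.86 for the yolk, 0.59 for the tailbud, 0.06 for the blood and 0.21 for the thyroid list. Over all genes tested the median was 0.01, and 50.9% were above 0. The interneuron list includes pax2b (-0.23) and lhx1b (0.14), which are also counted among the 96 other pronephros genes. The lists also share genes with each other, with tal1 and gata2a in both the interneuron and the blood list. Blood and endothelial genes (12 of 15) summed to 188.6 to 259.0 CPM in mutants and 182.0 to 244.3 CPM in wild type. Thyroid and pharynx genes (5 of 8 found, 4 tested) summed to 35.7 to 37.5 CPM in mutants and 25.4 to 38.5 CPM in wild type. edgeR called 0 genes of these 7 lists at an adjusted p under 0.05, with 14 muscle, 7 tailbud, 4 interneuron, 2 midbrain-hindbrain and otic, and 1 each of the yolk, blood and thyroid genes at an unadjusted p under 0.05. Over all genes tested, edgeR called 0.0735%, and 11.2% were under that unadjusted p. DESeq2 called 8 muscle genes lower and 2 tailbud genes higher in mutants and 0 in the other 5 lists. It called 2.21% of all genes to which it gave an adjusted p. Whether the low lhx1a and pax2a values came from kidney or from neural cells was not tested.

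**Figure D3:**
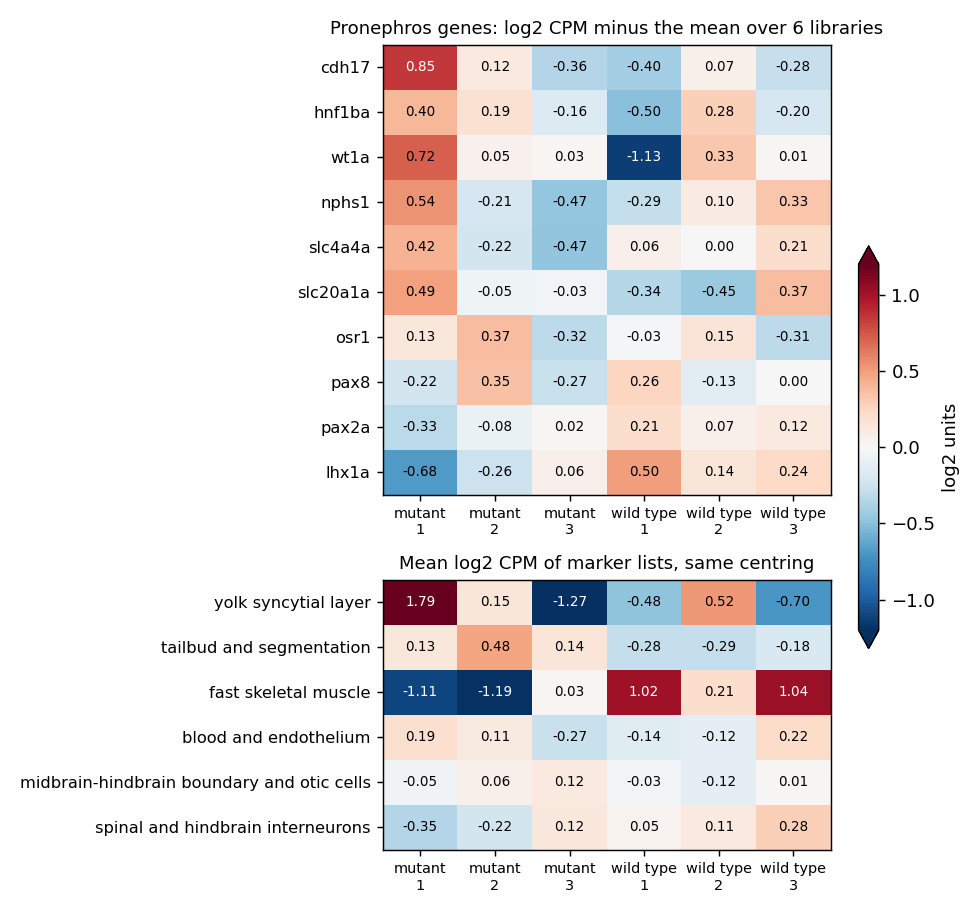
Log2 CPM of each pronephros gene (upper panel) and mean log2 CPM of 6 marker lists (lower panel), each minus its mean over the 6 libraries (columns); colour and printed values are in log2 units, and the colour scale ends at 1.2. cdh17 is at 0.85 and lhx1a at -0.68 in mutant replicate 1, the library in which the yolk syncytial layer list is also highest.

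Zebrafish kept many genes as duplicate copies. For 7 of the 10 genes a pair was formed with the duplicate copy or, for osr1, with the related gene osr2. The share of a gene in the summed level per length of its pair was compared as a description. lhx1a took 43.4%, 46.2% and 45.7% of its pair with lhx1b in mutant replicates 1 to 3, against 64.4%, 52.8% and 54.7% in wild type replicates 1 to 3. All mutant shares were below all wild-type shares. The share is built from the lhx1a values that were already apart between the genotypes, so it adds no separate evidence. lhx1b itself was at 5.32, 6.38 and 8.16 CPM in mutant replicates 1 to 3 and at 5.16, 6.50 and 6.45 CPM in wild type replicates 1 to 3, with a log2 fold change of 0.14 (95% interval -0.40 to 0.67). The intervals of lhx1a and lhx1b overlap, and the difference between them was not tested.

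The shares of the other 6 pairs overlapped between the genotypes. pax2a held 83.7 ± 3.62% of its pair with pax2b in mutants and 84.0 ± 6.70% in wild type, and hnf1ba held 63.0 ± 1.91% with hnf1bb in mutants and 60.4 ± 5.94% in wild type (SD, n = 3 each). wt1a held 66.6 ± 4.56% with wt1b in mutants and 59.0 ± 9.45% in wild type. slc4a4a held 63.2 ± 7.75% with slc4a4b in mutants and 65.5 ± 2.19% in wild type, and osr1 held 51.8 ± 6.53% with osr2 in mutants and 51.1 ± 3.96% in wild type. slc20a1a was the minor copy, at 2.29 ± 0.532% of its pair in mutants and 1.79 ± 0.623% in wild type. Its partner slc20a1b was at 100.9 ± 4.72 TPM in mutants and 106.9 ± 16.5 TPM in wild type. Log2 fold changes of the 7 partner genes ran from -0.23 (pax2b) to 0.14 (hnf1bb). edgeR and DESeq2 called 0 of the 7, with 0 at an unadjusted p under 0.05 in edgeR. Over all genes these shares were 0.0735% for edgeR, 2.21% for DESeq2 and 11.2% at the unadjusted p. slc20a1b had CPM ranges apart, from 248.3 to 271.7 CPM in mutants against 272.0 to 290.7 CPM in wild type, but its ranges overlapped in TPM. The gap was 0.277 CPM. In CPM, ranges were apart and lower in mutants for 1 of the 7, against 9.63% of all genes tested. They were apart and higher for 0 of the 7, against 8.45%. The spans of wt1b and osr2 each overlap that of a gene on the opposite strand. As the strand setting is unknown, reads of those neighbours could be among theirs.

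**Figure D4:**
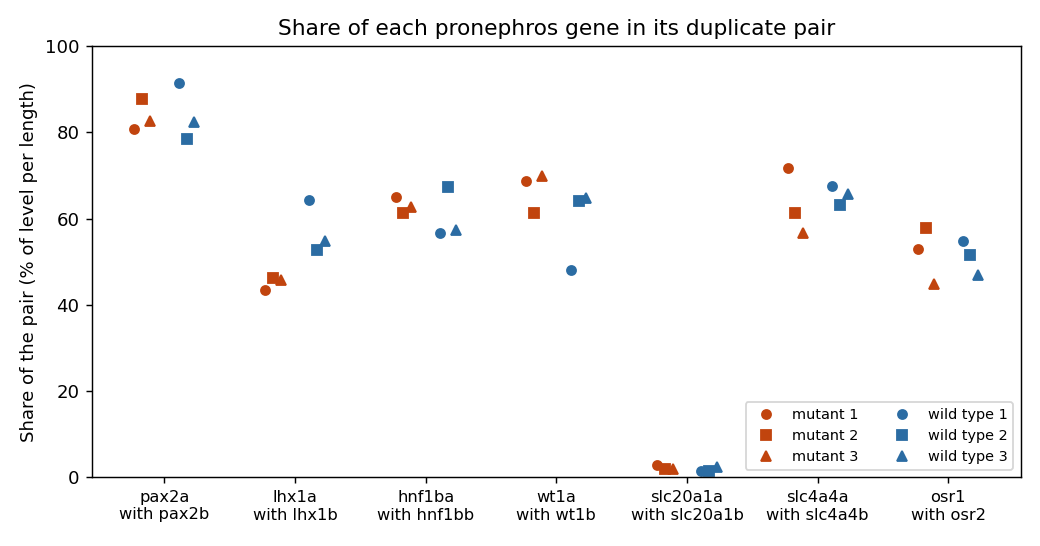
Share (y axis, % of the summed level per length) of a pronephros gene in its pair, per library, mutants in red and wild type in blue. The partner is the duplicate copy, or osr2 for osr1. The pair of lhx1a with lhx1b is the pair whose genotypes do not overlap, with mutants at 43.4% to 46.2% and wild type at 52.8% to 64.4%.

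The wider set of pronephros genes held 116 further genes in 6 lists, of which 103 were found in the table and 96 passed the filter. Their values too sum all sites of expression in the embryo, and pax2b, lhx1b and hnf4a are also in lists of other cell types. For scale, cdh2 of the adhesion list and ptpro of the podocyte list averaged 150.3 and 71.96 TPM, against 0.516 TPM for nphs1. How much of these values came from the kidney was not tested. edgeR called 0 of the 96, with 9 at an unadjusted p under 0.05, against 11.2% of all genes tested. DESeq2 called 1, against 2.21% of all genes to which it gave an adjusted p. That gene was pgam5, which encodes a mitochondrial phosphatase and is counted here only because it was listed. Log2 fold changes were above 0 for 52 and below 0 for 44, with a median of 0.03 (quartiles -0.17 and 0.21), beside quartiles of -0.22 and 0.22 over all genes tested. Ranges were apart for 7 genes higher and 13 lower in mutants, where 8.45% and 9.63% of all genes tested were apart in these directions. The genes named list by list below were picked by the smallest p in these same data. Ranges apart among them therefore add no separate evidence. For 69 of the 96 the 95% interval lay within 2-fold.

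Regulators of intermediate mesoderm and tubule segments (20 tested) had a median log2 fold change of -0.02. Of the 4 with the smallest p, the Iroquois gene irx3a was at 90.9, 88.6 and 106.8 CPM in mutant replicates 1 to 3, against 118.6, 121.8 and 129.3 CPM in wild type replicates 1 to 3 (log2 fold change -0.37, SE 0.11, edgeR adjusted p = 0.326). The T-box gene tbx2b, a regulator of distal tubule segments, was at -0.36 (SE 0.14, edgeR adjusted p = 0.405), and both of these had ranges apart. tfap2b, an AP-2 factor of distal nephron cells, was at -0.49 (SE 0.23), with overlapping ranges. The nuclear receptor gene hnf4a was at 16.5, 7.05 and 2.21 CPM in mutant replicates 1 to 3, against 2.85, 5.84 and 2.53 CPM in wild type replicates 1 to 3. Its log2 fold change of 1.199 (SE 0.68) was 0.32 without mutant replicate 1, and hnf4a is also in the yolk syncytial layer list.

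Podocyte and slit diaphragm genes (17 tested) had a median of -0.01. Of the 19 found, 2 were under the filter on low counts. The LIM homeobox gene lmx1bb was at 12.7, 13.5 and 14.8 CPM in mutant replicates 1 to 3, against 23.9, 18.3 and 17.7 CPM in wild type replicates 1 to 3 (log2 fold change -0.55, SE 0.17, edgeR adjusted p = 0.338). kirrel1a and kirrel1b, which encode Neph1-type partners of nephrin, were at 0.32 (SE 0.12) and 0.40 (SE 0.17) on the log2 scale, with ranges apart and higher in mutants. The receptor phosphatase gene ptpro was at -0.33 (SE 0.15), with ranges that overlapped.

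Proximal tubule genes (17 found, 4 of them under the filter on low counts, 13 tested) had a median of 0.08. cubn, which encodes the endocytic receptor cubilin, was at 6.71, 6.57 and 7.58 CPM in mutant replicates 1 to 3, against 4.58, 5.399 and 2.65 CPM in wild type replicates 1 to 3 (log2 fold change 0.72, SE 0.28, edgeR adjusted p = 0.414). The monocarboxylate transporter gene slc5a12 was at 0.631, 0.699 and 0.583 CPM in mutants, against 1.17, 0.861 and 1.03 CPM in wild type. The sulfate transporter gene slc26a1 was at 40.02, 24.96 and 14.1 CPM in mutant replicates 1 to 3, against 14.2, 17.3 and 17.8 CPM in wild type replicates 1 to 3. Its log2 fold change of 0.68 was 0.26 without mutant replicate 1.

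Distal tubule and duct genes (17 found, 1 of them under the filter, 16 tested) had a median of 0.01. The sodium pump gene atp1a1a.2 was at 34.4, 17.5 and 24.9 CPM in mutant replicates 1 to 3, against 42.4, 54.98 and 41.2 CPM in wild type replicates 1 to 3 (log2 fold change -0.85, SE 0.25, edgeR adjusted p = 0.328). It is in a tandem group of near-identical sodium pump genes, between which reads may be split. Its annotated span also runs over nearly the whole of a neighbour in this group, on the same strand. The phosphodiesterase gene gdpd3a was at -0.58 (SE 0.22), and ret, which encodes the receptor tyrosine kinase of the duct, was at -0.29 (SE 0.15), both with ranges apart. slc12a1, the sodium-potassium-chloride cotransporter of the early distal tubule, was at 17.5, 2.13 and 1.22 CPM in mutant replicates 1 to 3, against 0.998, 3.37 and 1.30 CPM in wild type replicates 1 to 3. The single high library gave a log2 fold change of 1.89 (SE 1.02), which was -0.15 without mutant replicate 1.

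Genes of tubule polarity, adhesion and cyst formation (18 tested) had a median of 0.08, with 13 above 0. The atypical protein kinase C gene prkci was at 0.19 (SE 0.09) and the RNA-binding gene bicc1a at -0.39 (SE 0.22), both with ranges apart. The E-cadherin gene cdh1 was at -0.28, with overlapping ranges. The multiciliated cell list (12 tested) had a median of 0.17. Its smallest p belonged to pgam5, which encodes a mitochondrial phosphatase and not a ciliary protein, at 114.3, 120.5 and 116.4 CPM in mutant replicates 1 to 3, against 93.5, 88.5 and 93.8 CPM in wild type replicates 1 to 3. Its log2 fold change was 0.35 (SE 0.09), with an adjusted p of 0.289 by edgeR and 0.0487 by DESeq2. The ciliary regulator rfx2 was at -0.20, the Notch ligand gene jag2b, which limits multiciliated cell number, at -0.24, and the ETS gene etv5b at 0.21. Of these 3, rfx2 and jag2b had ranges apart.

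**Figure D5:**
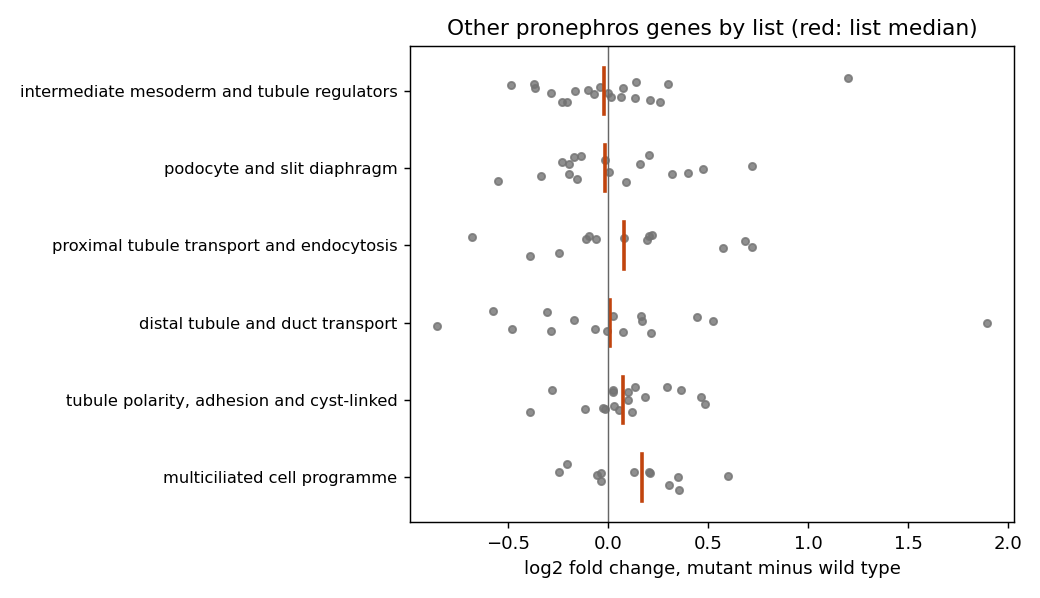
Log2 fold changes (x axis, mutant minus wild type, n = 3 libraries each) of the other tested pronephros genes by list, 1 grey point per gene, with the list median as a red bar; vertical jitter is for display. List medians lie between -0.02 and 0.17, and the point at 1.89 is slc12a1.

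For each of the 10 genes, the gene most like it in pattern was looked up among 91 other pronephros genes that averaged 1 CPM or more. Likeness was the mean absolute difference in centred log2 CPM over the 6 libraries. jag2b lay closest to pax2a, at a difference of 0.0231, where the median candidate was at 0.246. tfap2b was nearest to lhx1a (0.101) and the heart and mesoderm factor gene hand2 to both hnf1ba (0.0795) and cdh17 (0.151). ca2, a carbonic anhydrase gene, was nearest to wt1a (0.103), and tcf21, a podocyte factor gene, to slc4a4a (0.108). The sodium pump gene atp1a1a.4 was nearest to osr1 (0.108) and foxj1a, a ciliary regulator, to pax8 (0.156). The proton pump gene atp6v1aa was nearest to nphs1 (0.196), and tmem67, a ciliary membrane protein gene, to slc20a1a (0.201). With 6 libraries these distances describe the libraries at hand only.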

How the data were processed

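Each library has 1 deposited file of raw counts, not normalized, which lists 31484 Ensembl gene IDs with their exons and counted length, per the file headers. Trimmomatic 0.36, STAR 2.5.2b and GRCz10 are listed in the submitters' processing notes. Those notes name no counting program, strand setting or treatment of multiply mapped reads, so strand was treated as unknown. From these counts, edgeR 4.0.16 (R 4.3.3) with filterByExpr, TMM scaling and robust quasi-likelihood F tests compared mutant with wild type over 20415 genes, with no covariate and Benjamini-Hochberg adjustment over all of them. CPM are TMM-scaled and TPM use counted length. SE is the size of the log2 fold change over the square root of F, and values of log2 CPM carry a prior count of 2. Intervals cover 95%.

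The labels do not say whether same-numbered samples belong together, and the main fit used no pairing. Deviations of same-numbered samples correlated at -0.26, -0.12 and 0.20, and those of differently numbered samples at -0.35 to 0.40. With 3 libraries per genotype these correlations cannot decide whether the samples are paired. The 10 genes, the lists and the alternatives were chosen with earlier results of these data known. Named genes are the 10, up to 4 per list by smallest p, and 1 nearest pattern for each of the 10; 1 gene that the rule names is not reported here. Other alternatives were run with DESeq2 1.42.0 and limma 3.58.1 (voom). The code was tested on simulated counts for this comparison, with 200 changed genes among 20155, drawn at a mean of at least 1 CPM. Of 50 genes each at 2, 4, 8 and 16-fold, edgeR recovered 14, 47, 49 and 48 and made 12 false calls. DESeq2 recovered 28, 49, 50 and 49 and made 80 false calls. A larger part of the DESeq2 calls was therefore false in the simulation, a limit on the DESeq2 calls given above. No sequence is shown, since none was used here.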

Additional observations from a re-analysis of the deposited data

How the results depend on the processing

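The count of 0 called among the 10 pronephros genes held under RLE, upper-quartile and total-count scaling, both other filters, DESeq2, limma-voom, non-robust dispersion, thinning of the deepest library, a threshold of 0.1 and each left-out library, and the replicate block gave 0 as well. At an unadjusted p under 0.05 these fits gave 0 to 2 of the 10, and 1184 to 3003 of all the genes each fit tested. The number of genes tested was not the same in every fit, so these counts are not shares. In the main fit 11.2% of all genes tested were under that p. The fit that gave 2, without mutant replicate 3, had 2856 genes under that p. Of the 96 other listed genes, DESeq2 called 1 (pgam5, a mitochondrial phosphatase gene) and all other fits named here called 0. Over all genes tested the count of 15 was 44 with no filter, 8 with at least 1 CPM in 3 libraries, 450 with DESeq2, 58 at a threshold of 0.1, 0 with the replicate block (1649 at an unadjusted p under 0.05) and 0 to 16 with a library left out (0 without mutant replicate 2, with 1184 at an unadjusted p under 0.05, 2 without mutant replicate 1 or without wild type replicate 3, and 8 without mutant replicate 3). The fits that called 0 over all genes tested could not have called any of the 10. Most of the remaining fits called so few genes that 0 of the 10 could hardly have changed. Signs near 0 turned for nphs1 with thinning (0.0302) and for pax2b with limma-voom (0.0618). With a library left out, log2 fold changes ran from -0.29 to 0.0446 for pax8, -0.42 to 0.0432 for slc4a4a, -0.39 to 0.16 for nphs1, -0.0247 to 0.31 for osr1, -0.55 to 0.10 for pax2b, -0.0405 to 0.28 for lhx1b, -0.0691 to 0.28 for wt1b, -0.0104 to 0.21 for osr2 and -0.15 to 2.64 for slc12a1; the cause was not tested. For lhx1a they ran from -0.76 to -0.38 (edgeR adjusted p 0.292 to 0.864) and for pax2a from -0.33 to -0.15. As shares of raw counts, slc4a4a held 58.6% and osr1 58.0% of their pairs. nphs1 had the fewest counts of the 10 genes. The 95% intervals include the spread between libraries.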
